A study of Homo sapiens with 12 samples.

Results

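The comparison set 3 RNA-seq libraries of SETDB1 knockout HAP1 cells against 3 libraries of wild-type HAP1 cells, all made from total RNA with the non-directional kit. These 6 libraries were chosen by the library type and genotype in their titles and are 6 of the 12 libraries of the series. The titles call the 3 libraries of each genotype biological replicates. HAP1 is a human cell line with a nearly haploid genome, labelled as chronic myelogenous leukemia and grown in IMDM with serum and antibiotics in both groups. The labels do not say how the knockout was made or whether it is 1 clone, so a difference between genotypes and a difference between the 2 cultures of cells cannot be told apart. Each library held 8921959 to 10199215 gene counts, and 80.3 to 80.4% of its listed reads fell in genes. Levels are given as counts per 1000000 gene counts after TMM scaling (CPM), and 3 counts in a library correspond to 0.294 to 0.336 CPM.

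SETDB1 encodes a methyltransferase that places trimethyl groups on lysine 9 of histone H3. It is brought to DNA by KRAB zinc finger proteins through TRIM28, works with its partner ATF7IP, and is known for silencing retrotransposons, zinc finger gene clusters and germline genes. Loss of the enzyme may affect both its targets and genes downstream of them, which RNA counts alone do not separate. The question of the comparison was which genes differ and in which functions they lie.

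Blood cell markers were at or near 0. Of 18 blood cell markers, 11 were at 0 in all 6 libraries, among them SPI1, MPO, LYZ and HBB, and the 18 summed to between 0.884 and 1.498 CPM in the wild type and between 0.51 and 1.23 in the knockout. Of 17 pluripotency markers, 12 had more than 3 counts in all 6 libraries, and the list summed to between 1892 and 1944 CPM in the wild type and between 1996 and 2016 in the knockout. SOX2, a transcription factor of pluripotent and neural cells, stood at 793 CPM in the wild type.

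Before any result, the spread within each group was compared. The 3 knockout libraries differed from each other by no more than counting noise (chi-square per degree of freedom 0.956 to 0.991 over genes with at least 20 reads in the pair, chi-square test p = 0.773 to 0.9999). They are titled as biological replicates and were kept as 3 samples, but they may come from 1 culture or RNA, in which case the p-values measure technical spread only. In the wild type, replicates 1 and 3 were close (1.03), whereas replicate 2 stood apart from both (1.82 and 2.0). Counts of genes called are therefore also given with the 3 knockout libraries added up as 1 sample, and without wild-type replicate 2.

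SETDB1 itself, at chr1:150926263-150964744 on the plus strand of hg38, was at 63.9, 61.4 and 55.5 CPM in the wild type and at 12.1, 10.8 and 11.6 CPM in the knockout. The groups did not overlap, and the knockout mean was 5.24-fold lower (log2 fold change -2.39, SE 0.08, edgeR adjusted p = 7.02e-43). Reads from the gene were thus still counted in all knockout libraries. An exon of 1 gene on the opposite strand overlaps it. Reads that fitted several genes were left out of the counts, so the level of SETDB1 may miss reads of the overlap.

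After TMM scaling, roughly as many genes rose as fell in the knockout. The scaling centres the bulk of the genes near no change, so it partly sets this even split. A shift shared by most genes would not show. Of 13778 genes tested, 7089 passed an adjusted p of 0.05 (51.5%), 3517 of them higher (25.5%) and 3572 lower (25.9%). Of these, 1074 differed at least 2-fold (7.8%), 498 higher (3.61%) and 576 lower (4.18%). Because the background is this high, the count in each gene list below is read against 25.5% higher and 25.9% lower, and "rose", "fell", "higher" and "lower" are used of genes past the adjusted p of edgeR's quasi-likelihood test. With the 3 knockout libraries added up as 1 sample, and that sample assumed to vary like the wild type, 6030 of 14342 genes passed. Without wild-type replicate 2, 7134 of 14017 passed. Against a 2-fold null, 649 genes passed. The 3 knockout values all exceeded the 3 wild-type values for 28.1% of the genes and were all below them for 27.9%.

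**Figure D1:**
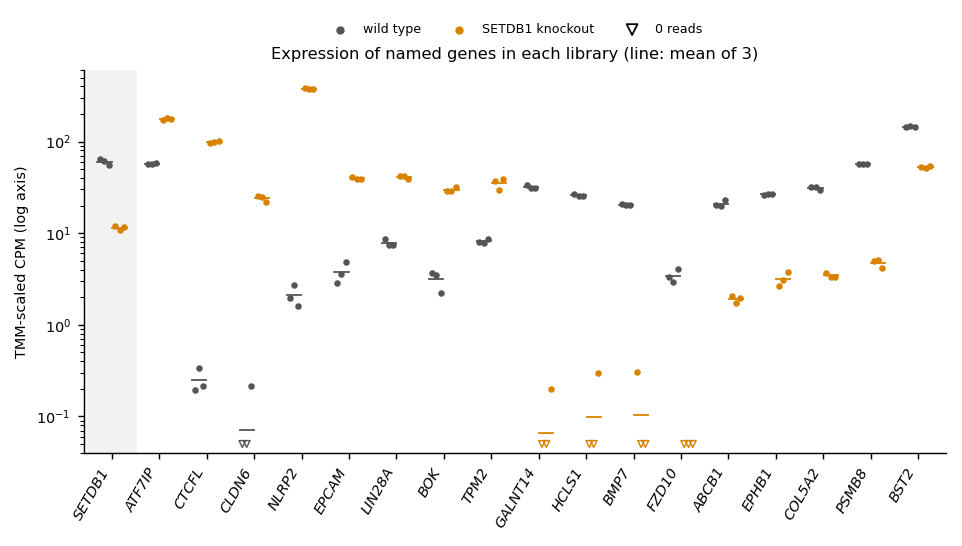
TMM-scaled CPM on a log axis of 18 genes in each of the 3 wild-type and 3 knockout libraries; points are libraries, lines the mean of 3, open triangles libraries with 0 reads, placed at the foot of the axis. SETDB1 (shaded) falls from 60.3 to 11.5 CPM, and CTCFL rises from 0.25 to 98.4 CPM. In none of the 18 genes, all but SETDB1 chosen by their values, do the groups overlap.

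The largest rises outside the 2 chromosome segments described at the end were mostly of ZNF genes, 6 of the 10 named. ZNF735, ZNF354C and ZNF610, members of the large family of zinc finger proteins, had 0 reads in all wild-type libraries. ZNF735 reached 14.5, 15.3 and 14.3 CPM in the knockout, at least 43.4-fold higher. ZNF354C reached 11.9, 12.2 and 12 CPM (at least 35.6-fold) and ZNF610 7.98, 7.34 and 7.28 CPM (at least 22.3-fold). ZNF525, ZNF677, ZNF679 and AC115220.1, a gene with no assigned name, had knockout means of 40.2, 7.38, 5.83 and 15.1 CPM and at most 4 reads in any wild-type library.

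The other 3 of the 10 were CTCFL, CLDN6 and NLRP2. CTCFL, the germ cell paralogue of the insulator protein CTCF, had 2, 3 and 2 wild-type reads against 934, 975 and 1019 knockout reads, a ratio of 399 (95% counting interval 193 to 993.5). CLDN6, a tight junction claudin of early embryonic epithelia, had 0, 0 and 2 reads against 247, 241 and 223 (ratio 339, interval 93.55 to 2806). NLRP2, an NLR family protein of oocytes and embryos, went from 1.96, 2.71 and 1.6 CPM to 381, 371 and 371 CPM (log2 fold change 7.48, SE 0.07, edgeR adjusted p = 1.57e-81). In all 10 genes the groups did not overlap, which follows largely from their choice by the size of the rise.

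The 10 protein-coding genes that fell most were of unlike kinds. TOX2, an HMG-box factor, was at 8.74, 8.93 and 7.17 CPM in the wild type and had 0 reads in the knockout, at least 27.0-fold lower. FAM19A4, a secreted chemokine-like protein, and APCDD1, a Wnt inhibitor of the cell membrane, likewise had 0 reads in the knockout (at least 24.6-fold and 21.0-fold lower). GALNT14, which starts O-linked glycan chains, had 344, 273 and 292 reads against 0, 0 and 2, a ratio of 476 (interval 131.5 to 3940).

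HCLS1, a cortactin relative best known from blood cells, had 275, 227 and 237 reads against 0, 0 and 3 (ratio 258, interval 88.0 to 1255). ACKR3, an atypical receptor for CXCL12, fell from 24.4, 24.1 and 26.0 CPM to 1, 1 and 0 reads (ratio 369, interval 102 to 3052). EPDR1, FXYD6, a regulator of the sodium pump, and MLF1 fell from 14.8, 10.1 and 14.5 CPM to 0 to 2 reads in each library. FASTKD2, a mitochondrial RNA-binding protein, fell from 86.6, 84.5 and 88.9 CPM to 0.307, 0.51 and 0.492 CPM. Of the 20 genes named here, 9 share exon sequence with another annotated gene (ZNF354C, CLDN6, NLRP2, ZNF525, ZNF677, GALNT14, EPDR1, FXYD6 and FASTKD2). Reads that fitted several genes were left out, so the counts of these 9 may miss reads of the shared stretch.

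The promoters of CTCFL and CLDN6, which rose from almost no reads, and of GALNT14 and HCLS1, which fell to almost none, are printed below to show how far genes of this kind differ in CG pairs, the dinucleotide that DNA methylation uses. The sequences are those of RefSeq on GRCh38.p14, 250 bases before to 50 after the start. They run 5′ to 3′ on the strand of the gene, with CG pairs in capitals. Where a gene symbol had several windows, the first listed was used, so other starts were not examined. The windows of CTCFL, CLDN6 and GALNT14 lie inside the annotated genes, which on the minus strand begin at 57525652, 3020071 and 31155202.

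CTCFL (chr20:57524648-57524947, minus strand): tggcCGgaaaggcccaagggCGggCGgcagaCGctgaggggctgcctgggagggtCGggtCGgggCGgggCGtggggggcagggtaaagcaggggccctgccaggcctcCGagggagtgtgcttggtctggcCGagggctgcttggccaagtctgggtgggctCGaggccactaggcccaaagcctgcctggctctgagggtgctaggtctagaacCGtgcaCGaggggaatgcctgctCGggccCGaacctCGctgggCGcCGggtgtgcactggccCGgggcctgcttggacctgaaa

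CLDN6 (chr16:3018134-3018433, minus strand): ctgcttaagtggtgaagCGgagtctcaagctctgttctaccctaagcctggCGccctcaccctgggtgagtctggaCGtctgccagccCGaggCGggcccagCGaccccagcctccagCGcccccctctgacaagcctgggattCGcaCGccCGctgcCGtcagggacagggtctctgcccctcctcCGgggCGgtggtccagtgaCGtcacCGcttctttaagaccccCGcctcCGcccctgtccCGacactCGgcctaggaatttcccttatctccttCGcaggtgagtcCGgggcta

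GALNT14 (chr2:31138391-31138690, minus strand): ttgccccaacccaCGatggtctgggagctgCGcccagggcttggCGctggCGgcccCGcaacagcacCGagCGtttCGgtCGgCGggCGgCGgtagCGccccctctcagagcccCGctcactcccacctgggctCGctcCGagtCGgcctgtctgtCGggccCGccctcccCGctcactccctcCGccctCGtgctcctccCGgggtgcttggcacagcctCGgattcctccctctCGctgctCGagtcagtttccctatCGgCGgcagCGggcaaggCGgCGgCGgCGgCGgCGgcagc

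HCLS1 (chr3:121660854-121661153, minus strand): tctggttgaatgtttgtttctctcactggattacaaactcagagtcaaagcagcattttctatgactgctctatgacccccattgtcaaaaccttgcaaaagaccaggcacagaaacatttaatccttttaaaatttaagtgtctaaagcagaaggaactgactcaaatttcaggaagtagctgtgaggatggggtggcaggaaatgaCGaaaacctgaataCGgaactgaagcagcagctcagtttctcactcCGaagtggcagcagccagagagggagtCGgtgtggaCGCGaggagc

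These hold 19, 21, 35 and 6 CG pairs. The median was 27 CG pairs over the 10132 genes tested that matched a promoter, and 14 over all 27305 promoters of the table. A count of CG pairs describes the sequence and says nothing of its methylation in these cells, which was not analysed here.

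A wider set of genes went between near silence and expression. A gene was taken as switched on if no wild-type library had over 3 counts and each knockout library had at least 10, and as switched off in the reverse case. By this rule 73 genes were switched on and 94 off, and these are descriptions of the counts, with no test of their number. With at most 1 count in the low group the numbers were 37 and 52. Of the genes switched on, 17 are ZNF genes (23.3% of the 73, against 3.28% of the genes tested), and 8 (10.96%, against 0.225%) belong to the germline and cancer-testis list (CTCFL, HORMAD1, MAGEB2, SSX5 and the near-identical copies CT45A1, CT45A3, CT45A5 and CT45A10). Chromosome 19, which holds most KRAB zinc finger genes, carried 25 of the 73 (34.25%) against 7.48% of all genes tested. Most of these 25 were already counted among the 17 ZNF genes. Chromosome X carried 7 (9.59% against 3.72%), all of them but EGFL6 already counted in the germline and cancer-testis list.

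Of the 94 genes switched off, 84 were protein-coding (89.4%, as among all genes tested). Among them were the secreted signals BMP7 and NOG, the receptor FZD10, the proteases ADAMTS9 and ADAMTS17, the transporters SLC37A1 and SLC43A3, the GABA receptor subunit GABRQ, the hypoxia-responsive gene NDRG1, the p53 target PHLDA3 and the DNA sensor IFI16. On chromosome 8 there were 10 (10.6% against 3.42% of all genes tested) and on chromosome 1 14 (14.9% against 9.87%), of which 12 lie in the chromosome 1 segment. Of the genes switched on, 41 matched a RefSeq promoter, with a median of 16 CG pairs, and of those switched off 55, with a median of 18. Both medians lie between the 14 of all promoters and the 27 of the genes tested.

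**Figure D2:**
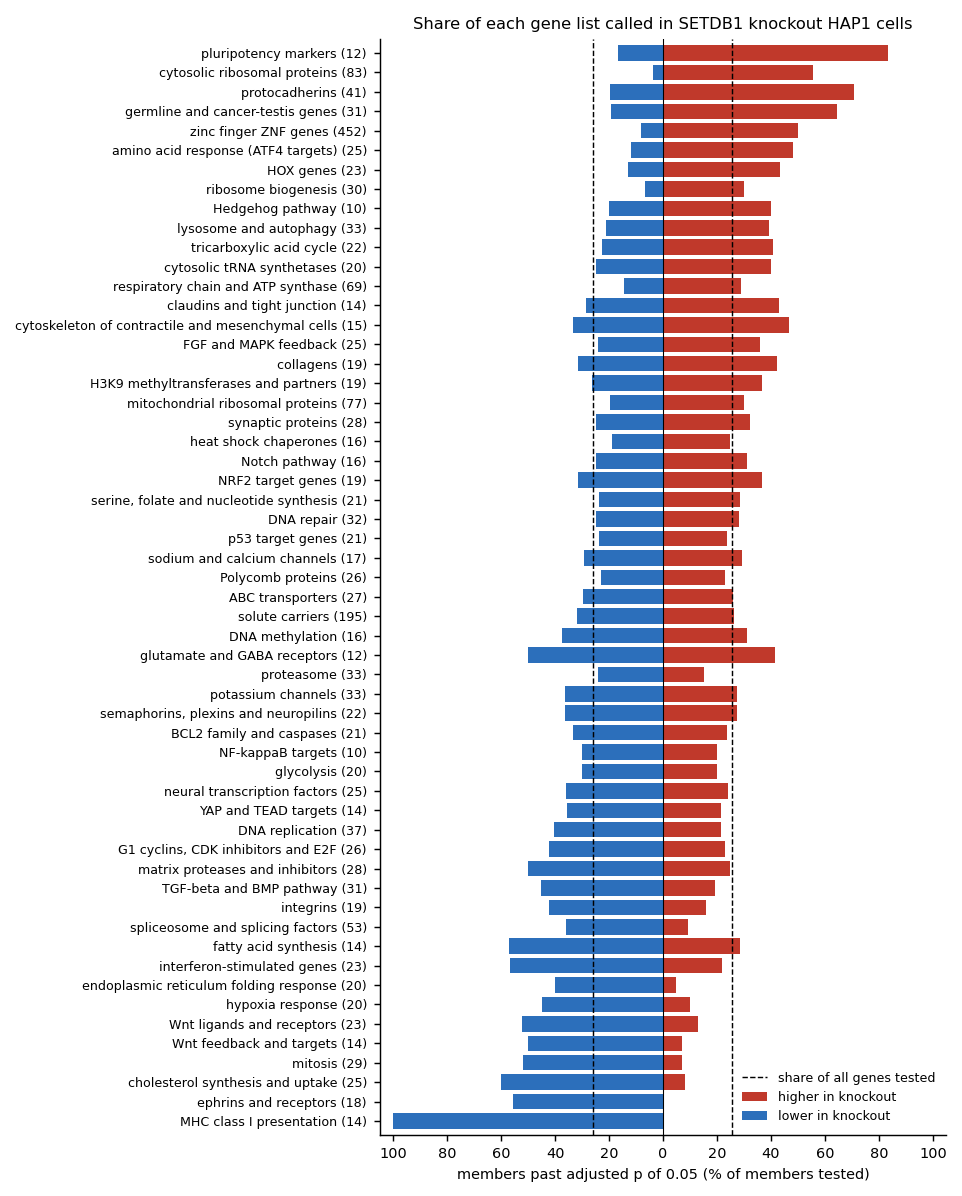
For each gene list with at least 10 members tested (number in brackets), the share of members higher in the knockout (red, to the right) and lower (blue, to the left) at an adjusted p of 0.05; dashed lines mark 25.5% and 25.9%, the shares among all 13778 genes tested. All 14 MHC class I presentation genes were lower, and 10 of 12 pluripotency markers were higher.

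Apart from SETDB1 itself, its partner ATF7IP had the largest change in the list of H3K9 methyltransferases and their partners. ATF7IP, which protects SETDB1 and carries it to chromatin, rose from 57.5, 56.7 and 58.1 CPM to 171, 181 and 177 CPM (log2 fold change 1.62, SE 0.04, edgeR adjusted p = 3.69e-49). The knockout libraries all lay above the wild type by about the same amount. Of 19 genes in the list of H3K9 methyltransferases and partners, 7 were higher and 5 lower (SETDB1, SUV39H1, CBX5, TRIM28 and CBX3). Polycomb proteins, which place and read methylation of lysine 27 of histone H3, were 6 higher and 6 lower of 26, among them MGA, an E-box factor of the variant complex PRC1.6 (log2 fold change 0.59, SE 0.04). Of 16 DNA methylation genes, 5 were higher and 6 lower. DNMT3L, the cofactor of de novo methylation, rose by 0.72 (SE 0.09) and TET1, which oxidises methylcytosine, by 0.54 (SE 0.04) on the log2 scale.

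Several gene families hold known targets of SETDB1. Of 452 ZNF genes tested, 226 were higher and 37 lower (median log2 fold change 0.23), and 57 rose at least 2-fold. Of 31 tested germline and cancer-testis genes, out of 169 listed, 20 were higher and 6 lower, with PRAME, a testis antigen of many tumours, rising from 3.04, 2.49 and 4.28 CPM to 187, 183 and 192 CPM. Protocadherins, clustered cell adhesion genes of which the alpha and gamma clusters share 3′ exons, had 29 of 41 higher and 8 lower, and PCDHB15 rose from 0.687, 1.02 and 0.214 CPM to 4.5, 5.1 and 6.0 CPM. Of 23 HOX genes, 10 were higher and 3 lower. HOXC11 rose from 1.47, 1.47 and 3.00 CPM to 33.0, 34.3 and 32.3 CPM, while its neighbour HOXC9 fell from 14.3, 13.1 and 12.7 CPM to 1.74, 1.63 and 1.57 CPM. Members of these families counted as tested had passed a filter on low counts, which a silent gene passes only through the group in which it is on. For comparison, of 347 tested genes outside the segments with under 1 CPM in the wild type, 235 were higher (67.7%) and 0 lower in the knockout.

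Markers of cell identity gave a mixed picture. Pluripotency markers were higher for 10 of 12 (median log2 fold change 0.54), and 5 rose at least 2-fold. ZFP42, a factor of naive pluripotent cells, rose from 1.96, 1.81 and 2.14 CPM to 19.3, 17.9 and 16.2 CPM. LIN28A, which blocks let-7 maturation, rose from 8.64, 7.46 and 7.38 CPM to 42.2, 42.2 and 38.6 CPM. TDGF1, the Nodal co-receptor, rose 4.97-fold and L1TD1, an RNA-binding protein of embryonic stem cells, 6.78-fold. The exceptions, named after their values were seen, were the core factors SOX2 and POU5F1, which fell by 0.13 and 0.11 on the log2 scale. NANOG was below the filter, with 2 to 6 counts in each library.

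Of 8 tested epithelial markers 2 rose and 2 fell. EPCAM, an epithelial adhesion protein, rose from 2.85, 3.62 and 4.82 CPM to 40.8, 39.3 and 38.8 CPM, and KRT8, a keratin of simple epithelia, 1.38-fold. ESRP1, a splicing factor of epithelial cells, fell from 17.8, 15.6 and 15.2 CPM to 0.716, 0.51 and 0.984 CPM, so 2 markers of the same cell type moved far in opposite directions. CLDN7 fell by 0.36 (SE 0.14), a call lost without wild-type replicate 2 (adjusted p = 0.274) and without knockout replicate 3 (adjusted p = 0.0954). Of 10 fibroblast markers 3 were tested and 2 fell, COL3A1 and PDGFRA. PDGFRA, a growth factor receptor of mesenchymal cells, fell from 58.9, 60.5 and 58.9 CPM to 19.9, 19.3 and 19.5 CPM. The defining markers DCN, LUM and FAP were at 0 in all 6 libraries, and the list summed to 80.9 to 84.0 CPM in the wild type and 38.2 to 39.4 in the knockout. In RNA from a whole culture, fewer cells of a kind and less RNA per cell cannot be told apart.

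**Figure D3:**
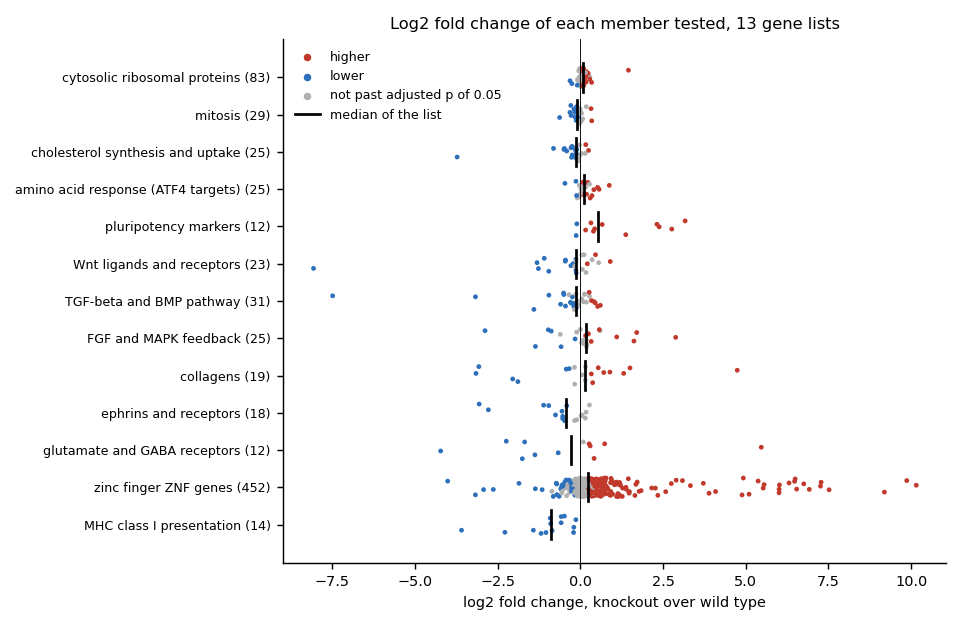
Log2 fold change, knockout over wild type, of each tested member of 13 gene lists (number tested in brackets); red points are higher and blue lower at an adjusted p of 0.05, grey points did not pass, and the black bar is the list median. MHC class I genes lie wholly to the left, with a median of -0.88; ZNF genes trail to the right; fitted values of genes with 0 reads in a group, such as FZD10, depend on the prior count and are no bound.

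Signalling genes fell more often than they rose in the Wnt and BMP pathways. Wnt proteins are secreted signals that act through frizzled receptors and LRP co-receptors, and of 23 such ligands and receptors 12 were lower and 3 higher (LRP6, WNT11 and WNT16). FZD10 was at 3.34, 2.94 and 4.07 CPM in the wild type and at 0 reads in the knockout, at least 11.3-fold lower. WNT5A, a ligand of the non-canonical branch, fell from 11.3, 9.27 and 8.88 CPM to 3.99, 3.77 and 4.13 CPM, and FZD8 from 11.9, 13.3 and 10.2 CPM to 5.63, 4.48 and 4.53 CPM. Of 14 feedback and target genes of the pathway 7 were lower and 1 higher (TCF7), and the Wnt antagonists SFRP1 and DKK3 were 2.65-fold and 2.79-fold lower.

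In the TGF-beta and BMP list, 14 of 31 genes were lower and 6 higher. BMP7, a ligand of kidney and bone formation, had 211, 178 and 191 wild-type reads against 3, 0 and 0 knockout reads, a ratio of 203 (interval 69.0 to 985.5). INHBB, a subunit of activin and inhibin, fell from 15.4, 18.1 and 15.6 CPM to 6.45, 6.73 and 5.32 CPM. SMAD6, an inhibitor inside the cell, fell by 0.95 (SE 0.12).

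FGF signalling genes moved both ways, 9 higher and 6 lower of 25, with 4 rising and 2 falling at least 2-fold. FGF19, the bile acid hormone of the gut, fell from 10.7, 9.61 and 9.63 CPM to 1.64, 1.43 and 0.984 CPM, and DUSP5, a phosphatase of ERK, was 2.57-fold lower. ETV4, a transcription factor induced by FGF, rose from 8.15, 9.72 and 9.10 CPM to 29.3, 28.4 and 24.9 CPM, and FGF4, which lies beside FGF19 on chromosome 11, was 3.25-fold higher at 1.75 CPM.

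Among Notch genes 5 of 16 were higher and 4 lower, a share near the background. The ligand DLL4 rose by 1.3 (SE 0.30) and DLL1, another ligand, fell by 0.78 (SE 0.10). Of 10 Hedgehog genes 4 were higher and 2 lower, with the effector GLI1 up by 0.92 (SE 0.21). The best known targets of YAP, a coactivator that answers to cell density and stiffness, went apart: CYR61 fell from 49.0, 52.3 and 44.0 CPM to 14.2, 16.3 and 15 CPM, whereas CTGF rose from 22.5, 24.1 and 21.1 CPM to 36.9, 42.6 and 38.6 CPM. Targets of NF-kappaB were 2 higher and 3 lower of 10, ICAM1 4.37-fold lower and CD40 3.31-fold higher.

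Eph receptors and their membrane-bound ligands, the ephrins, sort neighbouring cells, and of 18 such genes 10 were lower and 0 higher (median log2 fold change -0.44). EPHB1 fell from 25.8, 27.0 and 26.6 CPM to 2.66, 3.06 and 3.74 CPM, and EPHA3 from 27.1, 28.4 and 33.1 CPM to 3.79, 3.16 and 5.81 CPM. Outside the 2 segments the counts were 7 lower and 0 higher of 15 and the median -0.17. EFNA1, EFNA3 and EFNA4 lie together in the chromosome 1 segment. Of 22 semaphorin pathway genes 8 were lower and 6 higher. The neuropilins NRP1 and NRP2, co-receptors for semaphorins and VEGF, were 2.73-fold lower and 1.00 lower on the log2 scale (SE 0.07), and PLXNC1, a semaphorin receptor, was 3.10-fold lower.

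Cadherins, the calcium-dependent adhesion proteins, were lower for 5 of 7 and higher for 1, CDH3. CDH6 fell by 1.13 (SE 0.05) and CDH2, N-cadherin, by 0.45 (SE 0.04). Of 14 claudins and tight junction genes 6 were higher and 4 lower, and beside the rise of CLDN6 the more widespread CLDN1 fell from 16.2, 14.6 and 15.2 CPM to 3.48, 3.77 and 2.85 CPM. Of 19 integrins 8 were lower and 3 higher. ITGAV, the vitronectin receptor subunit, rose from 122, 119 and 126 CPM to 231, 224 and 241 CPM, and ITGB8, which pairs with it, was 1.01 lower on the log2 scale (SE 0.14).

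Matrix genes moved in both directions. Of 19 collagens 8 were higher and 6 lower. COL5A2 and COL3A1, fibril collagens that adjoin each other on chromosome 2, fell 8.93-fold and 8.40-fold, COL5A2 from 32.0, 31.6 and 29.3 CPM to 3.68, 3.36 and 3.35 CPM. COL4A4, of the basement membrane, fell from 10.2, 8.70 and 11.1 CPM to 2.35, 2.65 and 2.26 CPM, and COL9A1, of cartilage, had 2, 1 and 0 reads against 30, 36 and 28 (ratio 29.9, interval 9.92 to 148). Of 8 laminins 5 were lower and 2 higher, LAMA2 2.45-fold lower and LAMC3 2.08-fold higher. Matrix proteases and their inhibitors were 14 lower and 7 higher of 28. ADAMTS9, which cuts proteoglycans, had 100, 94 and 99 wild-type reads against 3, 1 and 1 knockout reads (ratio 61.4, interval 26.0 to 191).

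In the cytoskeletal list 7 of 15 were higher and 5 lower. CALD1, the actin-binding protein caldesmon, fell from 108, 98.1 and 97.8 CPM to 23.5, 23.0 and 25.9 CPM, while TPM2, a tropomyosin, rose from 7.95, 7.80 and 8.67 CPM to 37.0, 30.0 and 38.9 CPM. ABC transporters were 7 higher and 8 lower of 27. ABCB1, the drug efflux pump P-glycoprotein, fell from 20.1, 19.7 and 23.1 CPM to 2.05, 1.73 and 1.97 CPM. Solute carriers, at 51 higher and 62 lower of 195, lay close to the background, and among the largest changes were those of SLC37A1, at 0 reads in the knockout (at least 8.26-fold lower), SLC43A3 (ratio 61.6, interval 26.1 to 191) and SLC5A5, the iodide carrier, 6.28-fold higher.

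Neural genes, of which many were at low level, moved in both directions. Of 12 glutamate and GABA receptor genes 5 were higher and 6 lower, 5 of the latter at least 2-fold. GABRB2, a subunit of the GABA-A receptor, fell from 26.5, 21.4 and 25.9 CPM to 5.22, 5.40 and 5.02 CPM, and GRIN1, of the NMDA receptor, had 0, 0 and 1 reads against 23, 18 and 22 (ratio 60.1, interval 10.4 to 2411). Of 17 sodium and calcium channel genes 5 were higher and 5 lower. CACNA1B, the N-type calcium channel, rose from 1.08, 1.13 and 1.18 CPM to 8.08, 9.68 and 7.38 CPM, and CACNA2D1, an auxiliary subunit, fell from 30.9, 29.9 and 30.7 CPM to 9.72, 8.15 and 12.2 CPM. Potassium channels were 9 higher and 12 lower of 33, and synaptic proteins 9 higher and 7 lower of 28, with NRXN3, a presynaptic adhesion protein, 12.2-fold lower. Neural transcription factors were 6 higher and 9 lower of 25. PAX6, of eye and forebrain, fell from 6.77, 6.22 and 6.74 CPM to 1.84, 1.83 and 1.18 CPM.

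Of the lists described, MHC class I presentation was the only one in which every tested member passed in 1 direction. MHC class I molecules carry peptides cut by the proteasome and moved by the TAP transporter to the cell surface, and all 14 tested genes of this list were lower (median log2 fold change -0.88), 5 of them at least 2-fold. PSMB8, an inducible proteasome subunit, fell from 57.1, 57.5 and 57.6 CPM to 5.01, 5.10 and 4.13 CPM. PSMB9, its partner subunit, fell from 4.42, 5.43 and 4.60 CPM to 0.614, 1.12 and 1.18 CPM. TAP1, a TAP subunit that shares its promoter region with PSMB9, was 2.68-fold lower, and B2M, the light chain, 1.81-fold lower. Reads of HLA genes can be split between near-identical copies and their alleles, so the fall of HLA-B and HLA-C (log2 fold change -1.19 and -0.90) is less certain in size.

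The promoters of TAP1 and B2M are shown because both hold a pair of overlapping matches, in capitals, on either strand to GAAA and a further GAAA set apart by any 2 bases, the core letters of the element bound by interferon-activated factors. The sequences are RefSeq's on GRCh38.p14, written as above.

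TAP1 (chr6:32853655-32853954, minus strand): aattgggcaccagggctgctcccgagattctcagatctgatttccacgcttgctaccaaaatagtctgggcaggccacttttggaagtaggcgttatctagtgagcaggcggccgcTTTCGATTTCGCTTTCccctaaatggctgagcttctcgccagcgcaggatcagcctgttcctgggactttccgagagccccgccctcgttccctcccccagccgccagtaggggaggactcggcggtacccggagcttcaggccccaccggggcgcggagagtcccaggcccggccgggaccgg

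B2M (chr15:44711267-44711566, plus strand): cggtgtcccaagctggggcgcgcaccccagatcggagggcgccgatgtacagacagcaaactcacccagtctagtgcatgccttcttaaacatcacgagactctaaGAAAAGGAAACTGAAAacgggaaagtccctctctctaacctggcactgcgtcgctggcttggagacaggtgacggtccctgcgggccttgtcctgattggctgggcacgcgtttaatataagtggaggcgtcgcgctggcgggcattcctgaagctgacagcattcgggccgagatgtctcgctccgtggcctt

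Of 13 MHC class I promoters 7 held the match (53.85%), and of 26 interferon-stimulated genes 17 (65.4%). The share was 3.65% over all promoters and 2.65% over the genes tested, and the match was in 0 of 41 promoters of genes switched on and in 3 of 55 of those switched off (5.455%; GLRA2, PSMB8-AS1 and VIT). It describes these letters only. Of 23 interferon-stimulated genes tested, 13 were lower and 5 higher, among them IFITM3, CGAS, SAMHD1 and STAT2. BST2, tetherin, which holds budding viruses, fell from 145, 148 and 142 CPM to 52.4, 51.7 and 54.1 CPM, and IFI16, in the chromosome 1 segment, from 596, 521 and 564 reads to 0, 1 and 1.

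Metabolic lists moved by small amounts. Cholesterol synthesis and uptake was lower for 15 of 25 genes and higher for 2, SC5D and NSDHL (median log2 fold change -0.13). Outside the segments the counts were 12 lower and 2 higher of 22. EBP, a sterol isomerase, fell by 0.50 (SE 0.03). Of 14 fatty acid synthesis genes 8 were lower and 4 higher (ACSL4, SCD, ACACA and FASN). FADS2, a desaturase of polyunsaturated fatty acids, fell from 547, 569 and 537 CPM to 317, 312 and 314 CPM, its neighbour FADS1 by 0.43 (SE 0.03), and ACSL1, which activates long fatty acids, by 0.78 (SE 0.05).

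The response to hypoxia was lower for 9 of 20 genes and higher for 2, ANGPTL4 and P4HA1 (median log2 fold change -0.17). PDK1, a kinase that inhibits pyruvate dehydrogenase, fell by 0.85 (SE 0.08), and ANGPTL4, a lipase inhibitor, rose 2.90-fold. Genes answering to amino acid shortage through ATF4 leaned the other way, 12 higher and 3 lower of 25, the latter ATF5, PCK2 and SHMT2. CHAC1, which degrades glutathione, rose from 14.4, 16.7 and 13.1 CPM to 24.5, 25.9 and 30.3 CPM, and SLC7A11, the cystine carrier, by 0.52 (SE 0.05). The folding response of the endoplasmic reticulum was lower for 8 of 20 genes and higher for 1, the stress sensor ERN1.

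Of 19 targets of the oxidative stress factor NRF2 7 were higher and 6 lower. HMOX1, which degrades haem, rose from 12.9, 10.7 and 10.7 CPM to 21.4, 20.1 and 23.1 CPM. Glycolysis was 4 higher and 6 lower of 20, and the respiratory chain with ATP synthase 20 higher and 10 lower of 69. In the tricarboxylic acid cycle 9 of 22 were higher and 5 lower. IDH2, the mitochondrial isocitrate dehydrogenase, fell from 48.5, 48.7 and 48.3 CPM to 25.9, 26.1 and 24.6 CPM. Lysosome and autophagy genes were 13 higher and 7 lower of 33, with the proteases CTSH and CTSC lower by 1.15 (SE 0.17) and 1.01 (SE 0.05) on the log2 scale. CTSL, a protease in the chromosome 9 segment, rose from 46.4, 53.6 and 49.4 CPM to 116, 110 and 115 CPM (log2 fold change 1.19, SE 0.05). Of 5 metallothioneins, which bind zinc and whose copies are alike in sequence, MT1M fell by 1.10 (SE 0.07) and MT1E rose by 0.09, a call lost when any single library other than wild-type replicate 2 was left out (adjusted p up to 0.247).

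Growth and protein synthesis lists moved by small amounts. Of 83 cytosolic ribosomal protein genes 46 were higher and 3 lower (RPL22L1, RPS27 and RPS29), but the median log2 fold change was only 0.067. The number higher was 15 with the knockout libraries added up as 1 sample and 29 without wild-type replicate 1. RPL10 rose from 820, 866 and 860 CPM to 1037.5, 1032.5 and 1023.5 CPM. Ribosome biogenesis genes were 9 higher and 2 lower of 30. Of 29 mitosis genes 15 were lower and 2 higher, NDC80 and CENPA, both of the kinetochore, with a median of -0.090, and 8 were lower with the knockout counted as 1. KIF11, the spindle motor Eg5, was 1.25-fold lower. DNA replication genes were 8 higher and 15 lower of 37, none by 2-fold.

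Among regulators of the G1 phase 6 of 26 were higher and 11 lower. CCND1, cyclin D1, rose from 18.6, 20.1 and 18.3 CPM to 31.7, 33.8 and 36.4 CPM, and CCNE2, a cyclin E, fell from 15.6, 14.4 and 14.9 CPM to 7.98, 8.26 and 8.27 CPM. Of 21 p53 targets 5 rose and 5 fell, and CDKN1A, the p21 inhibitor, was low in both groups (3.02 and 1.75 CPM), its fall lost with the Wald test of DESeq2 (adjusted p = 0.0634) and without knockout replicate 3 (edgeR adjusted p = 0.0862). In the BCL2 and caspase list 5 of 21 were higher and 7 lower. BOK, a pore-forming relative of BAX, rose from 3.63, 3.50 and 2.25 CPM to 29.1, 29 and 31.7 CPM.

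The remaining housekeeping lists are given by their counts. DNA repair genes were 9 higher and 8 lower of 32, proteasome genes 5 and 8 of 33, mitochondrial ribosomal proteins 23 and 15 of 77, cytosolic tRNA synthetases 8 and 5 of 20, serine, folate and nucleotide synthesis 6 and 5 of 21, and heat shock chaperones 4 and 3 of 16. Splicing factors were 5 higher and 19 lower of 53, or 3 and 11 with the knockout counted as 1. Their largest falls, PRPF3, SNRPE and SF3B4, lay in the chromosome 1 segment, as did those of the proteasome (PSMD4 and PSMB4), of DNA repair (PARP1 and EXO1) and of the tRNA synthetases (EPRS).

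**Figure D4:**
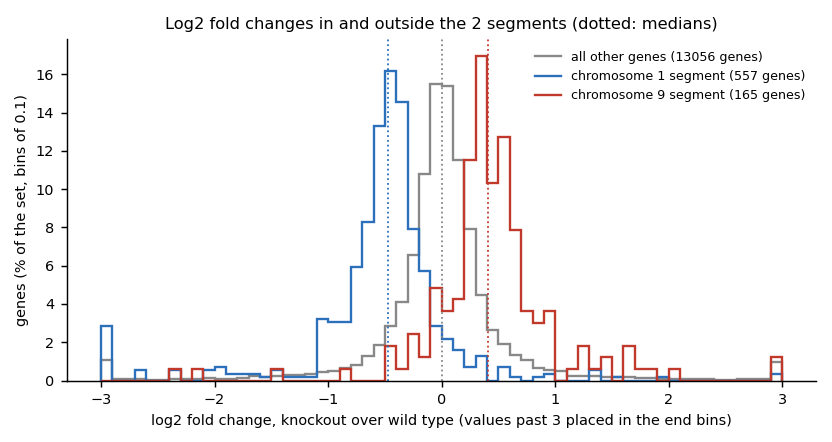
Distribution of log2 fold changes, knockout over wild type, in bins of 0.1, as a share of the genes in each set: 557 tested genes of the chromosome 1 segment (blue), 165 of the chromosome 9 segment (red) and the other 13056 (grey). Values past 3 are in the end bins, and the medians (dotted) lie at -0.47, 0.41 and 0.0069.

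Both segments, given with earlier results of these data known, moved as blocks and are described without a test. In the chromosome 1 segment, whose tested genes span chr1:146938744-248859144, 448 of 557 tested genes were lower and 18 higher, with a median log2 fold change of -0.47 (0.721-fold), and 91.6% of the genes lay below 0. In the chromosome 9 segment, whose tested genes span chr9:72351425-117415070, 122 of 165 were higher and 9 lower, with a median of 0.41 (1.32-fold), and 86.7% lay above 0. DNA copy number was not analysed here, and its part in these shifts was not tested.

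Some genes of the segments lay far from their block. In the chromosome 1 segment SETDB1 itself was 1.92 below the segment median on the log2 scale. ASTN1, of neuronal migration, had 88, 71 and 81 wild-type reads against 0, 0 and 1 knockout reads, and KIAA0040 was 3.13 below the median. CRABP2, which carries retinoic acid, rose from 20.6, 19.4 and 16.1 CPM to 54.4, 54.9 and 50.6 CPM, against the direction of its neighbours. NID1, a basement membrane protein, and ADAMTSL4 lay 1.057 and 1.438 above the median.

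In the chromosome 9 segment PTPN3, a phosphatase, fell from 24.2, 21.6 and 26.1 CPM to 5.32, 5.20 and 5.71 CPM, and RORB, a nuclear receptor, and GADD45G lay 1.84 and 1.23 below the segment median. TMC1, the channel of hair cells, rose from 14.4, 15.2 and 13.7 CPM to 49.2, 49.3 and 51.3 CPM, and FRMD3 and NR4A3, an orphan nuclear receptor, lay 1.62 and 1.46 above it.

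With both segments set apart, 6492 of 13056 genes passed (49.7%), 3377 higher (25.9%) and 3115 lower (23.9%), and 989 differed at least 2-fold (7.58%), 476 higher (3.65%) and 513 lower (3.93%). Lists with segment genes changed in count. Besides the ephrins given above, examples are mitochondrial ribosomal proteins (22 higher and 10 lower of 71, from 23 and 15 of 77), TGF-beta and BMP genes (5 and 13 of 28), interferon-stimulated genes (5 and 11 of 21) and p53 targets (5 and 3 of 19). With the segment medians taken out of the fit, the falls of EPRS, SF3B4, ATF6, SDHC and EXO1 no longer passed (edgeR adjusted p = 0.51, 0.624, 0.763, 0.174 and 0.0915). Nor did the rises of PSAT1 and IARS in the chromosome 9 segment (edgeR adjusted p = 0.973 and 0.0636). PARP1, PSMB4 and FH then passed in the opposite direction, with log2 fold changes of 0.073, 0.079 and 0.087 (edgeR adjusted p = 0.00583, 0.0268 and 0.016).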

How the data were processed

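Gene expression was measured by RNA-seq, and the authors deposited a table of raw read counts per Ensembl gene for each library. The submitters' processing notes name Trim Galore 0.4.4, STAR 2.6.0a, SAMtools 1.9, Picard 2.23.8, HTSeq 0.11.1 and build hg38. The strand setting of the counting is not given in the sources used here. Counting of 1 strand only would leave far more reads in no gene than the 4.0 to 4.4% seen. The kit keeps no strand, and 39.9% of the genes tested overlap an exon of an opposite-strand gene. Closing lines of reads in no gene (4.0 to 4.4% of listed reads), in several genes (8.37 to 8.41%) or not uniquely aligned (6.86 to 7.19%) were left out. The 58735 gene IDs all matched GENCODE 29. The paper in the header does not describe these libraries, so only its style was used.

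Counts were filtered with filterByExpr (minimum 10, total 15), given TMM factors and fitted in edgeR (4.0.16, R 4.3.3) by quasi-likelihood, genotype being the only term, with Benjamini-Hochberg adjustment over all genes, threshold 0.05. The step was tested on simulated data. Standard errors are the fold change over the square root of F, thus approximate. Intervals and the floor of 3 counts in the shallowest library cover counting error only. p-values measure the spread between libraries, which in the knockout was no more than counting noise.

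Gene lists (62), the segments and the comparisons were chosen with earlier results of these data known. Lists are described by counts and medians, with no test of the list. Genes named are SETDB1, the 10 largest rises and the 10 largest falls among protein-coding genes outside the segments with at least 5 CPM in the higher group, up to 4 members per list (up to 2 for chromatin, germline, HOX, protocadherin and immune lists) with the largest change and at least 1 CPM on average, the 3 protein-coding genes farthest above and below each segment median with at least 5 CPM in the higher group, and the 5 non-coding genes (lincRNA, antisense and processed transcripts, pseudogenes left out) switched on with the highest level; others were named after their values were seen, and some genes the rule names are not reported here. Alternatives were size factors of DESeq2 1.42.0, its Wald test, upper-quartile factors, no filter, the replicate number as a block, each library left out, the knockout summed as 1, and the segments left out or centred.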

Additional observations from a re-analysis of the deposited data

How the results depend on the processing

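The replicate numbers did not pair the samples: deviations from the group means correlated at 0.0118, 0.00197 and -0.0272 for numbers 1 to 3, and a fit with the replicate block called 7074 genes, of which 7031 were among the 7089 called without it. The numbers of genes called over all genes, in the segments and by the switching rule were within 1.5 times of the reported ones under the alternatives run, except these. Testing against a 2-fold null left 649 genes called, with genes called higher at 300 and genes called lower at 349. Without the filter on low counts the genes called at 2-fold numbered 1621, of 28949 tested. With segment medians removed 288 genes of the chromosome 1 segment passed. Genes switched on numbered 37 with at most 1 count in the low group and 36 with at least 20 in the high group, and genes switched off 52 and 48. The Wald test of DESeq2 called 5359 genes, all among the 7089 and in the same direction. Leaving out 1 library left 6394 to 7134 genes called and 1150 to 1187 genes called at 2-fold. TMM, size-factor and upper-quartile scaling gave medians of all genes of -0.0012, -0.0012 and 0.0032; only the medians of the tRNA synthetase and the serine, folate and nucleotide lists, both near 0, changed sign between them. Of the 122 counts of list members called higher or lower, 32 moved by over 1.5 times under at least 1 alternative (70 of 1708 values). Of 251 named genes, 221 kept their call and direction under every one of the 14 alternatives that gave a value for them, and 68 of 3470 values lost the call; where the segments were left out of the fit, their genes have no value. With segment medians removed, 9 log2 fold changes reversed in sign: PARP1 0.073, EXO1 0.085, EPRS 0.023, IARS -0.053, SF3B4 0.023, PSMB4 0.079, ATF6 0.021, SDHC 0.061 and FH 0.087. Calls of, among others, PRPF18, MARVELD3, CBX7, MT1E, HRK, SHANK1, ANKRD37, RPL17, ABCC2 and CLDN7 were each lost under 3 or more alternatives. Depth limits genes at a low level in both groups. Those with fewer than about 10 counts per library in both groups were not tested in the main fit. Below about 0.3 CPM in both groups a change was not detectable.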

Other observations

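Genes that code for no protein made up part of those switched on. Of the 73 genes switched on, 9 were lincRNAs (12.3%, against 2.37% of the genes tested) and 51 protein-coding (69.9% against 89.4%). LincRNAs were also above their share of the genes tested among the 94 genes switched off, at 6 (6.38%). AC010615.2, a processed transcript on chromosome 19, had 0 reads in the wild type and 18.2, 17.6 and 18.4 CPM in the knockout, at least 53.45-fold higher. AP005482.1, a lincRNA, had 0, 2 and 0 reads against 109, 119 and 135 (ratio 173, interval 47.6 to 1435), and AL442224.1, a lincRNA in the chromosome 9 segment, 2, 0 and 0 against 15, 26 and 27. The antisense genes ZNF790-AS1 and TSPEAR-AS2 had 54, 54 and 64 and 25, 26 and 17 reads in the knockout, with at most 2 in any wild-type library, but each overlaps a gene on the other strand and the kit keeps no strand. The pseudogenes ZNF826P, BX322639.1 and CEACAM22P, named after their values were seen, had 12.3, 7.0 and 6.86 CPM on average in the knockout, above the 5.78 CPM of ZNF790-AS1.

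Outside the segments, 312 lincRNAs were tested, of which 86 were higher and 53 lower (median log2 fold change 0.11), and 155 transcribed unprocessed pseudogenes, of which 49 were higher and 3 lower (median 0.20). Protein-coding genes outside the segments were 3103 higher and 2963 lower of 11645 (median 0.0029). The mitochondrial genome gave 1.23 to 1.29% of gene counts in the wild-type and 1.03 to 1.04% in the knockout libraries.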
